A study of Rattus norvegicus with 8 samples.

Results

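Severe contusion of the rat spinal cord was compared with moderate contusion, library against library, over all cells and within 4 classes of cells. The 2 severe libraries followed a weight drop from 50 mm and the 2 moderate libraries a drop from 25 mm, so 4 of the 8 libraries of the series entered the contrast. A cell was kept when mitochondrial transcripts made up at most 10% of its unique molecular identifiers (UMIs, each a counted transcript molecule) and when it held at least 1000 UMIs. Of the 57296 cells that passed in the series, 29467 came from these 4 libraries, 10860 and 6515 from moderate and 3991 and 8101 from severe cords. Raw UMIs were summed per library over all of these cells and over 4 classes defined by transcripts of a few genes. Tyrobp cells held at least 3 UMIs of Tyrobp, which encodes a signalling adaptor of myeloid and natural killer cells. Oligodendrocyte precursor cells (OPCs) held at least 2 UMIs of Ptprz1 together with at least 2 of Olig1 and Olig2, oligodendrocytes at least 3 of Mag and Mog, and fibroblasts at least 10 of Col1a1, Col3a1 and Dcn. The genes of these rules are not named as single results in their own class. Counts and medians of gene lists include them where they are list members.

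Single-cell transcriptomes were measured by droplet sequencing of the cord of female Wistar rats of 8 weeks, 7 days after injury at the ninth thoracic vertebra (T9). A 10 g weight fell from 12.5 mm (mild), 25 mm (moderate) or 50 mm (severe) onto the exposed cord, and sham animals had a laminectomy alone. No animal carried a transgene, and every animal was operated on. The mild and sham libraries, also 2 each, are given here as background. The labels do not tie the libraries to animals, while the study's text counts as many cords as libraries, and the p-values measure the spread between these libraries. The same libraries enter all 4 classes, and therefore calls in different classes are not independent of each other.

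The moderate libraries held 115384610 and 88313186 UMIs in kept cells and the severe libraries 48574135 and 128877323. The median share of mitochondrial UMIs per cell was 4.47% and 5.32% in the moderate libraries and 2.13% and 2.11% in the severe libraries. Haemoglobin made up 0.363% and 2.43% of the UMIs of the severe libraries and at most 0.00885% of those of the moderate libraries. Cells that met the rules of 2 or more classes made up 6.32% and 6.19% of moderate cells and 1.05% and 1.93% of severe cells. Within the OPC, oligodendrocyte and fibroblast classes, 27.2% to 44.2% of moderate cells also met another rule, against 5.18% to 17.7% of severe cells. These 4 properties moved with the group and their part in the results was not tested, and a call of a named gene within a class that was lost without the mixed cells is given as such. Any 2 of the 8 libraries shared at most 0.401% of their cell barcodes.

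**Figure D1:**
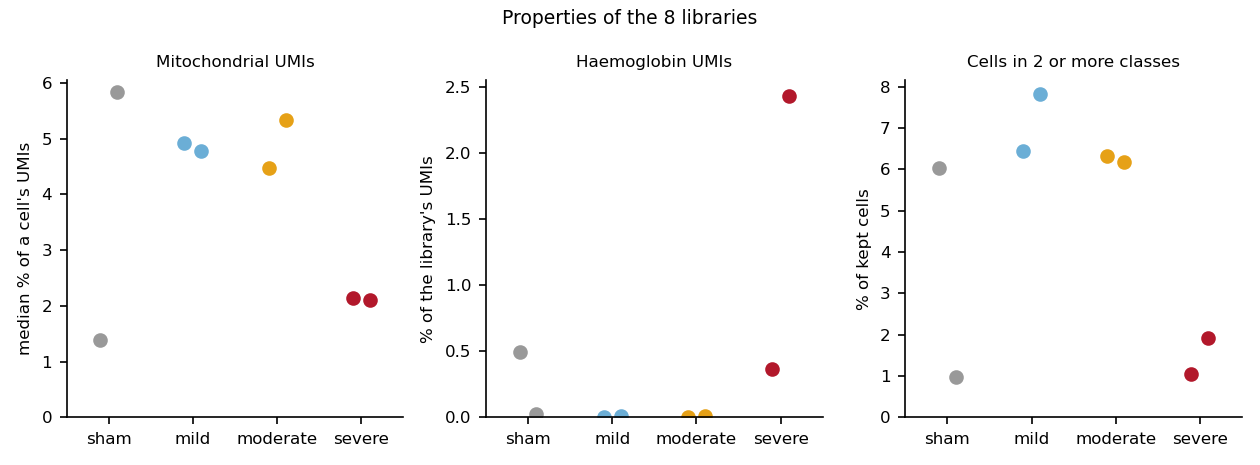
Each point is 1 library, grouped by injury on the x axis. The y axes give, from left to right, the median percentage of mitochondrial UMIs per cell, the percentage of UMIs from haemoglobin genes and the percentage of kept cells that met 2 or more class rules. The severe libraries lie at 2.13% and 2.11% in the left panel and at 1.05% and 1.93% in the right panel, below both moderate libraries.

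Contusion kills cells at the site of impact and opens vessels there, and blood-borne myeloid cells enter the lesion during the following days. Microglia and macrophages clear myelin and secrete cytokines, OPCs divide and can form new oligodendrocytes, and fibroblasts from the meninges and vessel walls lay down collagen. The drop height sets the force, so the contrast asks which transcripts in which cells differed between a heavier and a lighter lesion of the same age. All levels below are CPM, the UMIs of a gene in a class of 1 library scaled to a common library total that was adjusted by the trimmed mean of M-values (TMM). They are not corrected for gene length, which 3′ counting does not need. Fold changes are severe over moderate on the log2 scale from edgeR's quasi-likelihood fit to the 6 injured libraries. Their standard error (SE) was derived as the absolute fold change divided by the square root of the F statistic of that test. Adjusted p-values are by Benjamini-Hochberg over all genes tested in that class.

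Over all cells, 435 of 15990 genes (2.72%) were higher in severe libraries at an adjusted p under 0.05 and 647 (4.05%) were lower. With the replicate number of the labels as a block the fit over all cells called 2240 genes in place of 1082. In Tyrobp cells, 905 of 15028 genes (6.02%) were higher and 1206 (8.03%) lower. In OPCs, 1128 of 12628 (8.93%) were higher and 1331 (10.5%) lower. In oligodendrocytes, 1146 of 11138 (10.3%) were higher and 1135 (10.2%) lower, and in fibroblasts 1059 of 12632 (8.38%) were higher and 1075 (8.51%) lower. These shares are the background for the counts of this main fit. Other fits called different numbers of genes, so their list counts are not to be read against these shares. This holds for fits without 1 library and for library size alone. With library size alone 369 genes were higher and 3993 lower in Tyrobp cells, and 346 and 2763 in OPCs. In oligodendrocytes they were 373 and 2910, and in fibroblasts 401 and 3216. The split between higher and lower genes depended on the scaling. With library size alone in place of TMM, the median log2 change of all genes moved by -0.36 to -0.54, and the share of called genes that were higher fell from between 40.2% and 50.2% to between 8.46% and 12.5%.

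Of 10656 genes tested in all 4 classes, 212 (1.99%) were called higher in every class and 195 (1.83%) lower in every class. A further 1163 (10.9%) were called higher in exactly 1 class and 1255 (11.8%) lower in exactly 1. In all, 58 genes (0.544%) were called higher in one class and lower in another. The mean of the 4 classes, tested with limma on 1 value per library, was higher in severe libraries for 1082 genes (10.2%) and lower for 1699 (15.9%). Severe libraries lay above both moderate libraries in all 4 classes for 1391 genes (13.1%) and below both for 1504 (14.1%). A call in 1 class and not in another does not show a difference between classes, so the difference itself was tested with library as a block. Differences of single genes between classes are given with the mixed cells in the classes unless stated otherwise. The change in Tyrobp cells exceeded the mean change of the other 3 classes for 1105 genes (10.4%) and fell short of it for 981 (9.21%). The corresponding numbers were 587 (5.51%) and 417 (3.91%) for oligodendrocytes and 586 (5.50%) and 397 (3.73%) for fibroblasts. For OPCs they were 37 (0.347%) and 22 (0.206%), and with cells of more than 1 class left out none was called for OPCs, 761 for Tyrobp cells, 365 for oligodendrocytes and 299 for fibroblasts. With 1 library left out at a time the OPC number was 0 without either moderate library or the first severe library and 445 without the second severe library.

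The largest mean rises were those of the unnamed gene models LOC103694857 (8.27, SE 1.58) and LOC689064 (7.57, SE 1.53) and of the haemoglobin gene Hba-a2 (7.40, SE 1.70), all with a wide spread between libraries. Of the rises with a narrow spread, Rps19 was the largest of a gene with a name. Rps19, which encodes a protein of the small ribosomal subunit, stood at 68.6 and 51.5 CPM in Tyrobp cells of moderate libraries 1 and 2 and at 1548 and 1432 CPM in those of severe libraries 1 and 2. Values of a group are given in this order throughout. In OPCs it stood at 94.96 and 69.0 against 2168 and 1730 CPM. Oligodendrocytes gave 27.8 and 29.2 against 486 and 540 CPM, and fibroblasts 75.4 and 67.5 against 2137 and 1666 CPM. In every class both severe libraries lay far above both moderate libraries, and also above the mild libraries (21.7 to 61.4 CPM) and the sham libraries (51.2 to 200 CPM). The log2 change was 4.63, 4.57, 4.17 and 4.73 in the same order of classes, and the mean over classes was 4.53 (SE 0.17, limma adjusted p = 4.01e-05). The difference between any one class and the other 3 did not pass the test, and the largest was -0.47 (SE 0.18, adjusted p = 0.123) in oligodendrocytes.

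Rps6, another protein of the small subunit, rose by a mean of 3.42 (SE 0.23) on the log2 scale, from 17.5 to 42.2 CPM over the moderate libraries and classes to between 104 and 599 CPM in severe libraries. Tpi1, the glycolytic enzyme triosephosphate isomerase, rose by 3.26 (SE 0.25), from 6.49 to 17.2 CPM to between 42.5 and 192 CPM. Grcc10 rose by 3.39 (SE 0.18). Further gene models rose as far, LOC108351137 with a mean log2 change of 4.68 (SE 0.25) and LOC108349682 with one of 4.79 (SE 0.37). On the other side, the gene model AABR07035539.1 fell by 6.55 (SE 0.37) and LOC100360791 fell by 5.80 (SE 0.71) on the same scale. The directions of these 8 mean changes held under every alternative run, and each passed the limma test with library size in place of TMM.

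Unnamed gene models and annotated pseudogenes, recognised by their symbols, were 6.64% of the 10656 genes, but 23.1% of the 212 genes higher in all classes and 31.3% of the 195 lower in all. They were 5.07% and 4.38% of the genes called higher or lower in exactly 1 class. RefSeq lists 20 pseudogenes or like-named genes for Rps19, 11 for Rps6, 5 for Tpi1, 21 for Ftl1 and 11 for Ndufb4, so that reads of these genes could be counted at, or lost to, near-identical copies and their levels are uncertain. Gene span was also recorded. The named genes higher in all classes had a median RefSeq span (assembly GRCr8) of 10244 bases and those lower in all classes 36959 bases, against 24451 bases for all named genes tested. The same order held in single classes, with 11516.5 bases for higher and 49858.5 bases for lower genes in oligodendrocytes as the widest gap. These properties were looked at after the calls were known, they are a description, and their part in the shifts was not tested. All 8 libraries list the same 32623 genes in the same order, and their headers name the same version of the counting program. Whether reads of the severe and moderate libraries were otherwise assigned to genes in the same way was not tested, and the levels of Rps19, Rps6, Tpi1, Ftl1 and the gene models are to be read with that limit.

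Ribosomal protein genes rose more often than they fell. Of 53 tested, 10 rose and 1 fell in Tyrobp cells, 16 rose and 1 fell in OPCs, 13 rose and 1 fell in fibroblasts, and 9 of 52 rose and 2 fell in oligodendrocytes. The median log2 change lay between 0.26 and 0.57, against medians of -0.09 to -0.03 for all genes of the classes. With library size alone the medians lay between -0.24 and 0.24, and in oligodendrocytes 4 rose and 6 fell. Without the second moderate library, the library on which the counts depended most, 2, 6, 2 and 3 of these genes rose in the same order of classes. Nuclear genes of oxidative phosphorylation rose in 5 of 36 cases in Tyrobp cells and in 10, 14 and 13 of 35 cases in OPCs, oligodendrocytes and fibroblasts, with 1 or 2 falls in each class. Ndufb4, a subunit of complex I, rose from 92.7 to 179 CPM in the moderate libraries to 295 to 733 CPM in the severe libraries over the 4 classes. Ndufs5, another subunit of complex I, rose from 101 to 197 CPM to 330 to 649 CPM. Cox6b1, a subunit of cytochrome c oxidase, went the other way in every class, from 35.2 to 84.6 CPM to 9.16 to 14.4 CPM. With library size alone 3 or 4 genes of this list rose and 3 to 5 fell in each class. Without the second moderate library no gene of the list rose in Tyrobp cells, 3 each in OPCs and oligodendrocytes and 1 in fibroblasts.

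Of 13 mitochondrially encoded genes, 4 fell in Tyrobp cells, 7 in OPCs and 5 each in oligodendrocytes and fibroblasts, and none passed the test as higher. Not all members lay lower. Mt-atp8, a subunit of ATP synthase, had changes of 1.86 (SE 0.61, adjusted p = 0.0775) in Tyrobp cells and of 1.27 to 1.48 in the other classes, and in Tyrobp cells 3 members (Mt-atp8, Mt-nd4l and Mt-nd6) were higher in both severe than in both moderate libraries. Leaving out 1 library gave 2 to 7 falls per class, and DESeq2 gave 2 rises beside 4 falls in Tyrobp cells. Mt-nd1, a core subunit of complex I, stood at 3880 and 4720 CPM in Tyrobp cells of the moderate libraries and at 1002 and 1226 CPM in those of the severe libraries. In OPCs it stood at 5435 and 5065 against 1087 and 1064 CPM (log2 change -2.29, SE 0.19, adjusted p = 0.000339). The moderate libraries were the highest of the series for this gene in every class, since mild libraries lay between 1730 and 3256 CPM and sham libraries between 1331 and 2784 CPM. Mt-nd3 fell by a mean of 2.63 (SE 0.32) on the log2 scale, and its severe libraries lay below all 6 others in each class. Mt-co3, a subunit of cytochrome c oxidase, fell in all 4 classes, with changes from -1.40 (SE 0.25) in oligodendrocytes to -2.07 (SE 0.21) in OPCs. Cells above 10% mitochondrial UMIs had been removed, and with the limit at 20% all named calls in the 5 populations held.

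**Figure D2:**
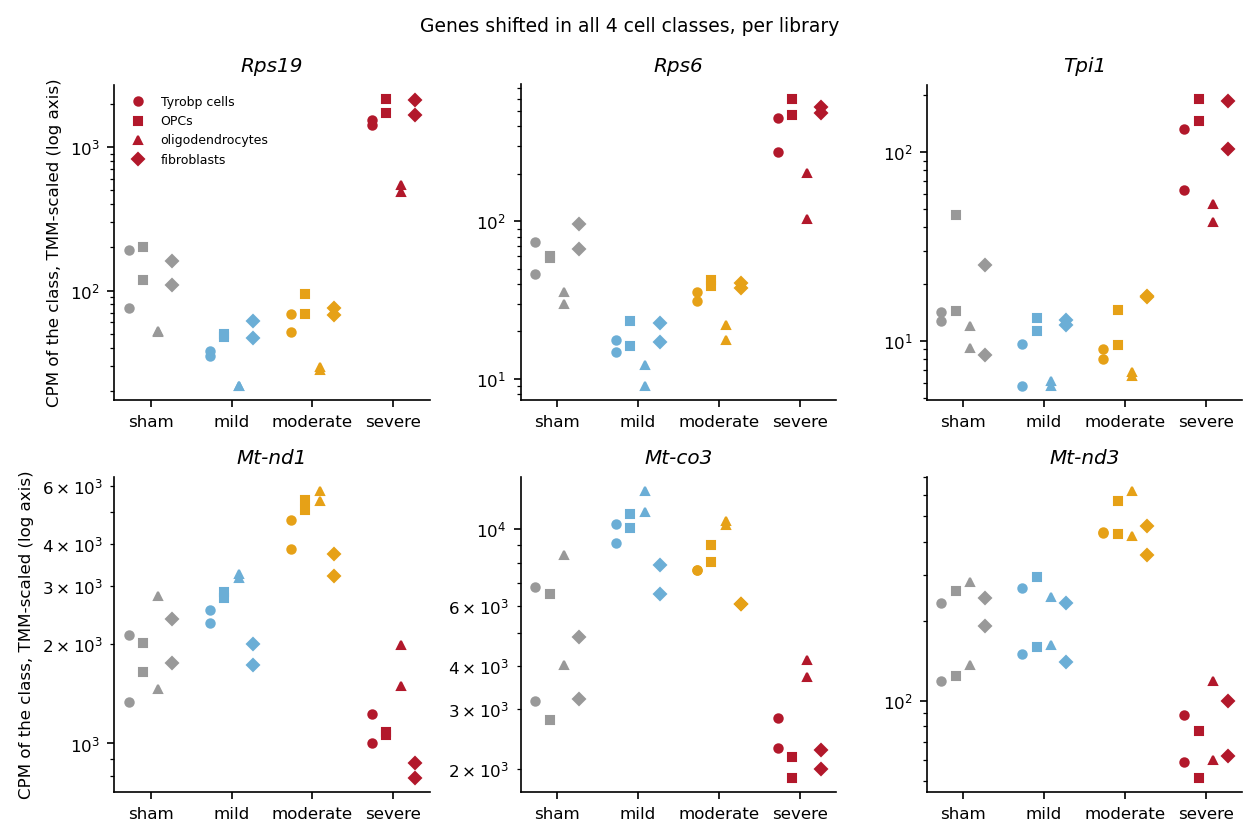
Each point is the TMM-scaled CPM (log axis) of 1 gene in 1 class of 1 library, with the groups on the x axis and the classes as symbols. Severe libraries lie above all others for Rps19, Rps6 and Tpi1, and below both moderate libraries for Mt-nd1, Mt-co3 and Mt-nd3 in every class.

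Of 19 heat shock and chaperone genes, 1 rose and 2 fell in Tyrobp cells, 2 rose and 4 fell in OPCs, 1 rose and 2 fell in oligodendrocytes, and none rose and 3 fell in fibroblasts. Of 24 antioxidant and metallothionein genes, 4 rose in Tyrobp cells, 4 rose and 4 fell in OPCs, and 4 rose and 1 fell in fibroblasts, and of 23 in oligodendrocytes 3 rose and 2 fell. Counts this small are not read as a result about the lists, and the genes that follow are single cases. Hspa8, a constitutive chaperone, rose in Tyrobp cells by 1.22 (SE 0.25), in OPCs by 1.16 (SE 0.24) and in oligodendrocytes by 1.66 (SE 0.31), while in fibroblasts its change of 0.65 (SE 0.25, adjusted p = 0.11) did not pass. Hsp90aa1, an inducible chaperone, fell in all 4 classes, with changes of -1.20 to -1.44, and in Tyrobp cells this call was lost without any one of the 4 libraries. Prdx1, a peroxidase, rose in all 4, for example in OPCs from 658 and 534 CPM to 1783 and 1870 CPM. Ftl1, the light chain of the iron store ferritin, rose from 4659 and 4160 CPM to 27249 and 26182 CPM in Tyrobp cells, a log2 change of 2.60 (SE 0.25, adjusted p = 0.00377). Its change in Tyrobp cells exceeded that of the other classes by 0.56 (SE 0.15, adjusted p = 0.0194), and the severe libraries lay above all others there. Tm7sf2, an enzyme of cholesterol synthesis, rose in all 4 classes by 1.64 to 2.04.

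Tyrobp is expressed by microglia, by infiltrating myeloid cells and by natural killer cells, and the class holds them together. The class carried its markers in all libraries, with 8547 to 15323 CPM over 8 markers (among them C1qa, Aif1 and Cd68) in the moderate and severe libraries. Of 30 cytokine and chemokine genes, 12 rose and none fell, with a median log2 change of 1.32 against -0.05 for all genes. Il1b, the gene of interleukin-1 beta, stood at 133 and 279 CPM in the moderate libraries and at 3689 and 3867 CPM in the severe libraries. Mild libraries held 163 CPM each and sham libraries 559 and 310 CPM, so that the severe libraries were alone at this level. The change was 4.19 (SE 0.39, adjusted p = 0.00309), and it exceeded that in the other 3 classes by 2.89 (SE 0.53, adjusted p = 0.00341).

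Cxcl2, which draws neutrophils, went from 617 and 602 CPM to 9474 and 6489 CPM (change 3.71, SE 0.30, adjusted p = 0.00226). Cxcl1, its neighbour with the same receptor, went from 388 and 745 CPM to 5298 and 8294 CPM (3.58, SE 0.40, adjusted p = 0.00682). Tnf was rare in all libraries, at 0.632 and 1.15 CPM in moderate and 9.77 and 24.7 CPM in severe libraries (4.28, SE 0.55, adjusted p = 0.0103). All 4 of these calls held without any one of the 4 libraries, among all cells of the class and when only cells with C1q transcripts were counted. The cells with at least 3 UMIs of C1qa, C1qb and C1qc were 72.8% and 59.4% of moderate and 20.9% and 53.4% of severe Tyrobp cells. Restricted to them, 13 cytokine genes rose and 1 fell (median 1.23). The whole list gave 5 rises without the first moderate library, 6 without the second, and 12 without either severe library, with 1 fall when the second severe library was left out.

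The promoters of the 2 chemokines are shown because both genes rose together and because they carry a motif of NF-kappaB, a transcription factor of inflammatory genes. RefSeq (GRCr8) places them at chr14:17467206-17467505 (Cxcl2) and chr14:17479272-17479571 (Cxcl1), both on the minus strand. The sequences run 5′ to 3′ from 250 bases before to 50 bases after the annotated start, and capitals mark the NF-kappaB motif.
Cxcl2: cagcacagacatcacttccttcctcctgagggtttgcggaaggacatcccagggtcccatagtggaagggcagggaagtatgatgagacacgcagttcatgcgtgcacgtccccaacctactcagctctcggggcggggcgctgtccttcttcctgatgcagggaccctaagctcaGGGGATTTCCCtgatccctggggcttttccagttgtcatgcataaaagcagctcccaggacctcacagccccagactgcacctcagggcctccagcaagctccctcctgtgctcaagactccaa
Cxcl1: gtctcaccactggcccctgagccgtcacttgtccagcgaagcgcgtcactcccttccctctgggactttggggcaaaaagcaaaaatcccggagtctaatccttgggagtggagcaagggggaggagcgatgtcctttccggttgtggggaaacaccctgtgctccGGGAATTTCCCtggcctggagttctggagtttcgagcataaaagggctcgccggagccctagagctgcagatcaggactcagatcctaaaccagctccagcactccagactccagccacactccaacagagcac
On either strand the motif was found in 4.18% of 33469 rat promoters of this length and in 8 of 20 genes of the cytokine list with a promoter in the table. A match describes the letters and not a bound site.

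Major histocompatibility complex (MHC) class II genes, which present antigen to T cells, rose in 6 of 10 cases and fell in none (median 2.64). RT1-Da went from 161 and 196 CPM to 1803 and 1109 CPM (3.03, SE 0.46, adjusted p = 0.0152), and RT1-Db1 from 116 and 174 CPM to 1133 and 761 CPM (2.71, SE 0.40, adjusted p = 0.014). In cells with C1q the changes were 2.18 and 1.64, and 5 of the 10 genes rose. Without the first or the second moderate library none of the 10 passed the test, with medians of 2.56 and 2.58, and without the first or the second severe library 4 and 7 rose. Among interferon response genes 6 of 33 rose and 1 fell (median 0.67), with Ifit3 at 4.99 and 7.58 against 79.4 and 49.4 CPM (3.36, SE 0.49) and Oasl at 9.02 and 12.8 against 61.0 and 135 CPM (3.17, SE 0.44). Library size alone gave 3 rises and 4 falls in the interferon list, where 369 of all 15028 genes rose and 3993 fell. Without the first or the second moderate library 1 gene of the list rose, without the first severe library 4.

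Among single genes that rose was Vegfa. Vegfa, the vascular growth factor, went from 38.6 and 63.1 CPM to 369 and 115 CPM (2.25, SE 0.57, adjusted p = 0.0441), a call lost without mixed cells (adjusted p = 0.0533). Cxcr4, a chemokine receptor, went from 115 and 143 to 374 and 319 CPM (1.42, SE 0.24). Of 17 complement genes 3 rose and none fell (median 0.45). C5ar1, the receptor of complement C5a, went from 99.4 and 121 to 276 and 212 CPM (1.14, SE 0.27), a call that was also lost without mixed cells (adjusted p = 0.0711). Cfb, a factor of the alternative complement pathway, rose from 0.376 and 0.725 to 8.51 and 5.26 CPM. Lyz2, lysozyme of macrophages and neutrophils, rose from 4677 and 3870 to 12192 and 10512 CPM (1.41, SE 0.25). Lipid handling genes of foamy macrophages were high in both groups and none of 25 passed the edgeR test in either direction (4 at an unadjusted p under 0.05), although DESeq2 called 3 higher and 1 lower. Apoe stood at 44859 and 35664 CPM in moderate and 61508 and 74505 CPM in severe libraries (0.76, SE 0.41, adjusted p = 0.227). Spp1, osteopontin, stood at 12473 and 15226 against 23279 and 17546 CPM (0.56, SE 0.27, adjusted p = 0.18). In the other 3 classes Spp1 fell, and Apoe changed by -0.44 to -1.35 without passing the test. Relative to those classes, the changes of Apoe and Spp1 were larger by 1.68 (SE 0.34, adjusted p = 0.00532) and 1.92 (SE 0.24, adjusted p = 0.000702). Both differences were taken with the mixed cells in the classes, and their values without them are not given here. Without mixed cells Spp1 in OPCs stood at 621 and 865 CPM in moderate and 246 and 284 CPM in severe libraries (change -1.49).

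Among the genes that fell in Tyrobp cells were the transcription factors Atf3, Egr2 and Klf2. Stress-related lists did not fall as a whole. Of 23 immediate early genes 3 rose and 8 fell, and of 19 integrated stress response genes 3 rose and none fell. Of all genes in the class 6.02% were higher and 8.03% lower. Atf3 went from 1415 and 1581 CPM to 301 and 498 CPM (-1.91, SE 0.29, adjusted p = 0.0156). Egr2 went from 27.1 and 24.1 to 6.30 and 5.61 CPM (-2.11, SE 0.23), and Klf2 from 11.98 and 46.9 to 3.83 and 2.19 CPM (-3.32, SE 0.64). Rhob, a small GTPase, went from 446 and 832 to 189 and 155 CPM (-1.89, SE 0.32), and its change lay 1.86 (SE 0.31) below that of the other classes.

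Tyrobp also marks neutrophils and natural killer cells, and their genes moved with the group. Of 20 neutrophil genes 7 rose and none fell (median 3.18), of 15 T and NK cell genes 6 rose and none fell (median 2.56), and of 14 dendritic cell genes 3 rose (median 1.36). S100a8 stood at 39.4 and 38.5 CPM in moderate and 1208 and 258 CPM in severe libraries, and Nkg7, a granule gene of killer cells, at 1.87 and 1.17 against 49.1 and 14.4 CPM. Siglech, a lectin of microglia and plasmacytoid dendritic cells, stood at 3.22 and 3.34 against 48.5 and 13.7 CPM. In all 3 the first severe library was the higher one. Among cells with C1q the neutrophil list gave 2 rises of 18 (median 0.67), the T and NK cell list 1 rise of 12 (median 0.87), and Siglech a change of 0.38. Without either moderate library neither list gave a call, and without the first severe library the neutrophil list gave 2 and the T and NK cell list none. Genes of OPCs went the other way in Tyrobp cells, with 8 of 24 lower and none higher (median -2.08). Pdgfra, the growth factor receptor of OPCs, stood at 15.4 and 18.1 against 2.70 and 1.84 CPM. With cells of more than 1 class left out 7 of 21 fell, and without the first moderate, second moderate, first severe and second severe library 2, 1, 1 and 14 of the list fell.

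Of the 38 genes called in Tyrobp cells that are named here, 20 remained called without the first moderate library, 13 without the second, 26 without the first severe library and 36 without the second. With all 8 libraries in the fit, whose sham libraries differed from each other, 4 of the 38 remained (Rps19, Rps6, Tpi1 and Il1b), and with the moderate and severe libraries alone 31 did. DESeq2 called all 38.

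OPCs in the severe libraries were few, 88 and 368 cells against 804 and 1008 in the moderate libraries. In them 5 precursor markers summed to 710 and 740 CPM against 666 and 722 CPM, but the members went different ways. C1ql1 was higher, at 365 and 413 against 237 and 269 CPM. Pdgfra was lower, at 82.3 and 40.1 against 105 and 133 CPM, as was Tnr, at 23.7 and 26.0 against 49.3 and 67.6 CPM. For Cspg4 and Sox10 the groups overlapped. The class also held markers of mature oligodendrocytes, at 1418 and 1907 CPM in moderate and 2620 and 2704 CPM in severe libraries. Immediate early genes are transcribed within minutes of a stimulus, including the stress of dissociation. Of 22 tested, 15 fell and none rose, with a median of -1.20 against -0.09 for all genes and 10.5% of all genes lower. Egr1, a zinc finger factor, stood at 762 and 656 CPM in the moderate libraries and at 102 and 124 CPM in the severe libraries. Mild libraries lay between, at 434 and 574 CPM, and sham libraries at 170 and 322 CPM. The change was -2.64 (SE 0.23, adjusted p = 0.000351). Fosb, a partner of Jun, went from 568 and 328 CPM to 74.0 and 93.1 CPM (-2.41, SE 0.30, adjusted p = 0.00289). Btg2, which restrains division, went from 459 and 296 CPM to 52.7 and 90.5 CPM (-2.37, SE 0.31, adjusted p = 0.00392). Klf2, which is low in this class, stood at 7.05 and 15.6 CPM against 0.592 and 1.40 CPM.

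The promoters of Egr1 and Btg2 are shown as those of the 2 leading genes of the list that carry a stimulus motif in this window. Egr1 lies at chr18:26736828-26737127 on the plus strand and Btg2 at chr13:48087641-48087940 on the minus strand (RefSeq, GRCr8). Capitals mark CArG boxes, the motif of serum response factor, in Egr1, and the full cyclic AMP response element TGACGTCA in Btg2.
Egr1: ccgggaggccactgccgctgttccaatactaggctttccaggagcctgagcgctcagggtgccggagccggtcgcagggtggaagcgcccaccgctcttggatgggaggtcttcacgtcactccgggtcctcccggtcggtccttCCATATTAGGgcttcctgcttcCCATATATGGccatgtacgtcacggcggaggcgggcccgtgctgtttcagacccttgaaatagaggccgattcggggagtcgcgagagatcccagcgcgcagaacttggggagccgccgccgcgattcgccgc
Btg2: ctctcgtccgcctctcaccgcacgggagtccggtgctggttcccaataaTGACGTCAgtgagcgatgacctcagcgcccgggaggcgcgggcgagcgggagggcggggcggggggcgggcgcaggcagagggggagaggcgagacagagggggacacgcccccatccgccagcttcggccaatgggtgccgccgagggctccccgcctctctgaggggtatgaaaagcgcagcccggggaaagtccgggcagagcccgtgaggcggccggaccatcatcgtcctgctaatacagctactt
On either strand a CArG box was found in 1.64% of 33469 promoters and in 4 of 16 immediate early genes with a promoter in the table, and the response element in 1.83% of all and 5 of the 16. None of these matches was tested for binding.

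The fall of immediate early genes was as large without mixed cells (16 of 22, median -1.22) and without the cells with the highest doublet scores (14 of 22). It held with library size alone (16) and with DESeq2 (14). Leaving out 1 library gave 14 falls without the first moderate, 6 without the second moderate, 12 without the first severe and 10 without the second severe library. Of the same list, 3 of 23 rose and 8 fell in Tyrobp cells, 1 of 22 rose and 5 fell in fibroblasts, and 3 of 21 rose and 3 fell in oligodendrocytes. The difference between OPCs and the other classes did not pass the test for Egr1 (-1.66, SE 0.49, adjusted p = 0.106) or Fosb (-1.10, SE 0.29, adjusted p = 0.082). Nfkbiz, a regulator of NF-kappaB targets, did pass. It stood at 70.0 and 70.5 CPM in moderate and 5.92 and 13.2 CPM in severe OPCs, and its change of -2.71 (SE 0.31) differed from that of the other classes by -1.74 (SE 0.27, adjusted p = 0.0303). Without mixed cells its change in OPCs was -3.65, and no difference of OPCs passed the test.

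Genes of lipid-laden macrophages were lower in severe OPCs, with 9 of 25 down and 1 up. Gpnmb, a lysosomal glycoprotein, stood at 687 and 490 against 228 and 194 CPM (-1.48, SE 0.22, adjusted p = 0.00666), and Spp1 at 2718 and 2150 against 839 and 871 CPM (-1.51, SE 0.25, adjusted p = 0.0093). In sham libraries Gpnmb stood at 194 and 222 CPM, like the severe libraries, and Spp1 at 32.5 and 154 CPM, below them. Without mixed cells Gpnmb in OPCs stood at 252 and 205 CPM in moderate and 105 and 49.3 CPM in severe libraries (-1.62). Csf1r, the receptor of a myeloid growth factor, stood at 91.6 and 42.3 against 2.96 and 12.6 CPM, and the 8 Tyrobp cell markers summed to 1753 and 961 CPM in moderate and 127 and 693 CPM in severe OPCs. Without mixed cells 10 genes of the lipid list fell and 2 rose, and without the first or the second moderate library 5 and 4 fell.

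Of 24 markers of the OPC lineage 3 rose and 4 fell, shares not far from those of all genes in the class (8.93% and 10.5%), and none rose and 9 fell with library size alone. Sox6, a factor that keeps precursors undifferentiated, rose from 50.9 and 46.3 to 85.3 and 104 CPM (0.97, SE 0.23), and Tnr, tenascin-R, went from 49.3 and 67.6 to 23.7 and 26.0 CPM (-1.22, SE 0.26). Of 29 cell cycle genes 3 were higher and 2 lower, also near the shares of all genes. Rrm2, a subunit of ribonucleotide reductase, rose from 27.4 and 30.7 to 84.1 and 72.8 CPM (1.42, SE 0.22), whereas Mki67, a marker of dividing cells, went from 265 and 219 to 136 and 156 CPM (-0.73, SE 0.20, adjusted p = 0.0343), a call that was lost without any one library and without mixed cells (adjusted p = 0.0502). Nefm, a neurofilament gene, went from 44.0 and 49.7 to 13.03 and 14.05 CPM (-1.78, SE 0.24), at the level of the sham and mild libraries (9.39 to 16.5 CPM). Sesn2, a stress-induced brake on growth signalling, went from 24.0 and 23.0 to 4.74 and 7.41 CPM (-1.84, SE 0.28).

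The calls of myelin genes in OPCs changed when the mixed cells were left out, a step that itself selects on Mag and Mog. In all cells of the class 7 of 25 rose and none fell, for example Mog from 7.95 and 20.7 to 40.9 and 38.2 CPM. Without cells of more than 1 class 1 rose and 5 fell, the median turned from 0.69 to -0.27, and Mog changed by 0.04. That step removes every OPC with at least 3 UMIs of Mag and Mog, so the level of Mog was limited by the selection. It cannot tell mixed cells from OPCs that express myelin genes. OPCs that also met the oligodendrocyte rule numbered 11 and 32 in moderate and 3 and 23 in severe libraries. With library size alone none passed, nor without the first moderate or the second severe library. Of the 31 genes called in OPCs that are named here, 26 remained called without the first moderate library, 26 without the second, 28 without the first severe library and 23 without the second.

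Moderate libraries held 264 and 208 oligodendrocytes and severe libraries 76 and 287, and the summed levels of 6 mature markers were 30262 and 22680 CPM against 77716 and 50673 CPM. Myelin genes were higher in the severe libraries. Of 25, 16 rose and none fell (median 1.40, with 10.3% of all genes higher). The 25 include Mag and Mog, which define the class, so the count and the median are not independent of the cell selection. Mal, a proteolipid of compact myelin, stood at 752 and 435 CPM in moderate and 4240 and 2028 CPM in severe libraries (2.40, SE 0.42, adjusted p = 0.013). Sham libraries held 1591 and 1593 CPM and mild libraries 1006 and 1429 CPM, so that the moderate libraries were the lowest of the series and the severe the highest. Cldn11, the tight junction protein of myelin, went from 2538 and 1895 to 10032 and 6452 CPM (1.89, SE 0.31, adjusted p = 0.0107). Aspa, which cleaves N-acetylaspartate, went from 170 and 119 to 504 and 552 CPM (1.87, SE 0.24), and Car2, a carbonic anhydrase, from 39.5 and 34.8 to 135 and 271 CPM (2.47, SE 0.33). The change was larger than in the other classes for Mal (by 2.54, SE 0.56, adjusted p = 0.0164), Aspa (1.64, SE 0.32, adjusted p = 0.00999) and Cldn11 (1.75, SE 0.40, adjusted p = 0.0186), while for Car2 the difference of 1.90 (SE 0.58, adjusted p = 0.0545) did not pass. Without mixed cells 14 of the 25 rose, and 5 did without the second moderate library, against 15 or 16 without any other library.

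Genes of cholesterol synthesis, which supplies the myelin membrane, rose in 8 of 24 cases and fell in none (median 0.84). Fdps, farnesyl diphosphate synthase, went from 268 and 161 to 756 and 808 CPM (1.87, SE 0.28, adjusted p = 0.00855). The severe libraries lay within the range of the sham libraries (619 and 898 CPM) and the moderate libraries lay below all others. Idi1, the isomerase one step before it, went from 318 and 189 to 1402 and 450 CPM (1.86, SE 0.49, adjusted p = 0.0331), and Fdft1, squalene synthase, from 95.3 and 57.6 to 224 and 173 CPM (1.37, SE 0.29). Without the second moderate library 2 genes of the list rose, without the first severe library 6 and without the second 11, and with library size alone 5 rose and 2 fell. Of 15 genes of the integrated stress response 3 rose and 1 fell. Psat1, an enzyme of serine synthesis on that list, went from 192 and 140 to 674 and 428 CPM (1.73, SE 0.28), 2.30 (SE 0.34) more than in the other classes, since in fibroblasts it fell from 26.4 and 30.02 to 11.1 and 10.8 CPM. Phgdh, the first enzyme of serine synthesis, went from 99.8 and 71.9 to 326 and 227 CPM (1.68, SE 0.27).

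Olig1, a lineage factor, was higher at 1280 and 1143 CPM against 368 and 403 CPM (1.65, SE 0.23, adjusted p = 0.00792), and it belongs to the rule of the OPC class. Slc48a1, a haem transporter, went from 428 and 396 to 1399 and 1273 CPM (1.70, SE 0.24). Immediate early genes that rose here were Junb from 220 and 279 to 2374 and 537 CPM (2.54, SE 0.58, adjusted p = 0.0227), and Fos from 809 and 1002 to 2676 and 1425 CPM (1.18, SE 0.33, adjusted p = 0.0407). In both the first severe library was well above the second, and mild libraries held more Fos (2334 and 3048 CPM) than moderate ones. The change of Fos exceeded that in the other classes by 2.40 (SE 0.47, adjusted p = 0.0105), and both genes were called without mixed cells (3.04 for Junb and 1.35 for Fos). Without the second severe library 7 of 21 immediate early genes rose, and without the first 1 rose and 5 fell.

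Most cell cycle genes were lower in severe oligodendrocytes, with 16 of 29 down and 1 up (median -1.95). The summed level of the list was higher, at 4282 and 4412 CPM in severe against 2683 and 2612 CPM in moderate libraries. Changes of its members reached 1.80. Top2a, a topoisomerase of dividing cells, stood at 45.9 and 75.8 CPM in the moderate libraries and at 0 and 7.35 CPM in the severe libraries (-3.48, SE 0.59, adjusted p = 0.0118). Mki67 stood at 55.3 and 62.7 against 1.01 and 8.54 CPM (-3.18, SE 0.49, adjusted p = 0.00869). Mild libraries held 31.2 and 46.8 CPM of Mki67 and sham libraries 6.62 and 33.0 CPM. The first severe library had only 76 cells of this class and a UMI total of 1221835, so a level of 1.01 CPM there stands on few UMIs. Without mixed cells 14 of the 29 fell, and without the first or second moderate library 8 and 2 did.

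Matrix genes were lower too, with 15 of 35 down and none up (median -3.06), but fewer without mixed cells. Col1a1, a collagen chain, stood at 241 and 125 against 9.06 and 6.84 CPM, and Mgp, matrix Gla protein, at 237 and 362 against 15.1 and 16.9 CPM. Fibroblast markers summed to 327 and 386 CPM in moderate and to 18.11 and 26.999 CPM in severe oligodendrocytes. Without mixed cells 4 of 22 fell, and Col1a1 (-2.72, adjusted p = 0.117) and Mgp (-1.50, adjusted p = 0.0617) no longer passed. Of the 33 genes called in oligodendrocytes that are named here, 25 remained called without the first moderate library, 22 without the second and 31 without either severe library.

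**Figure D3:**
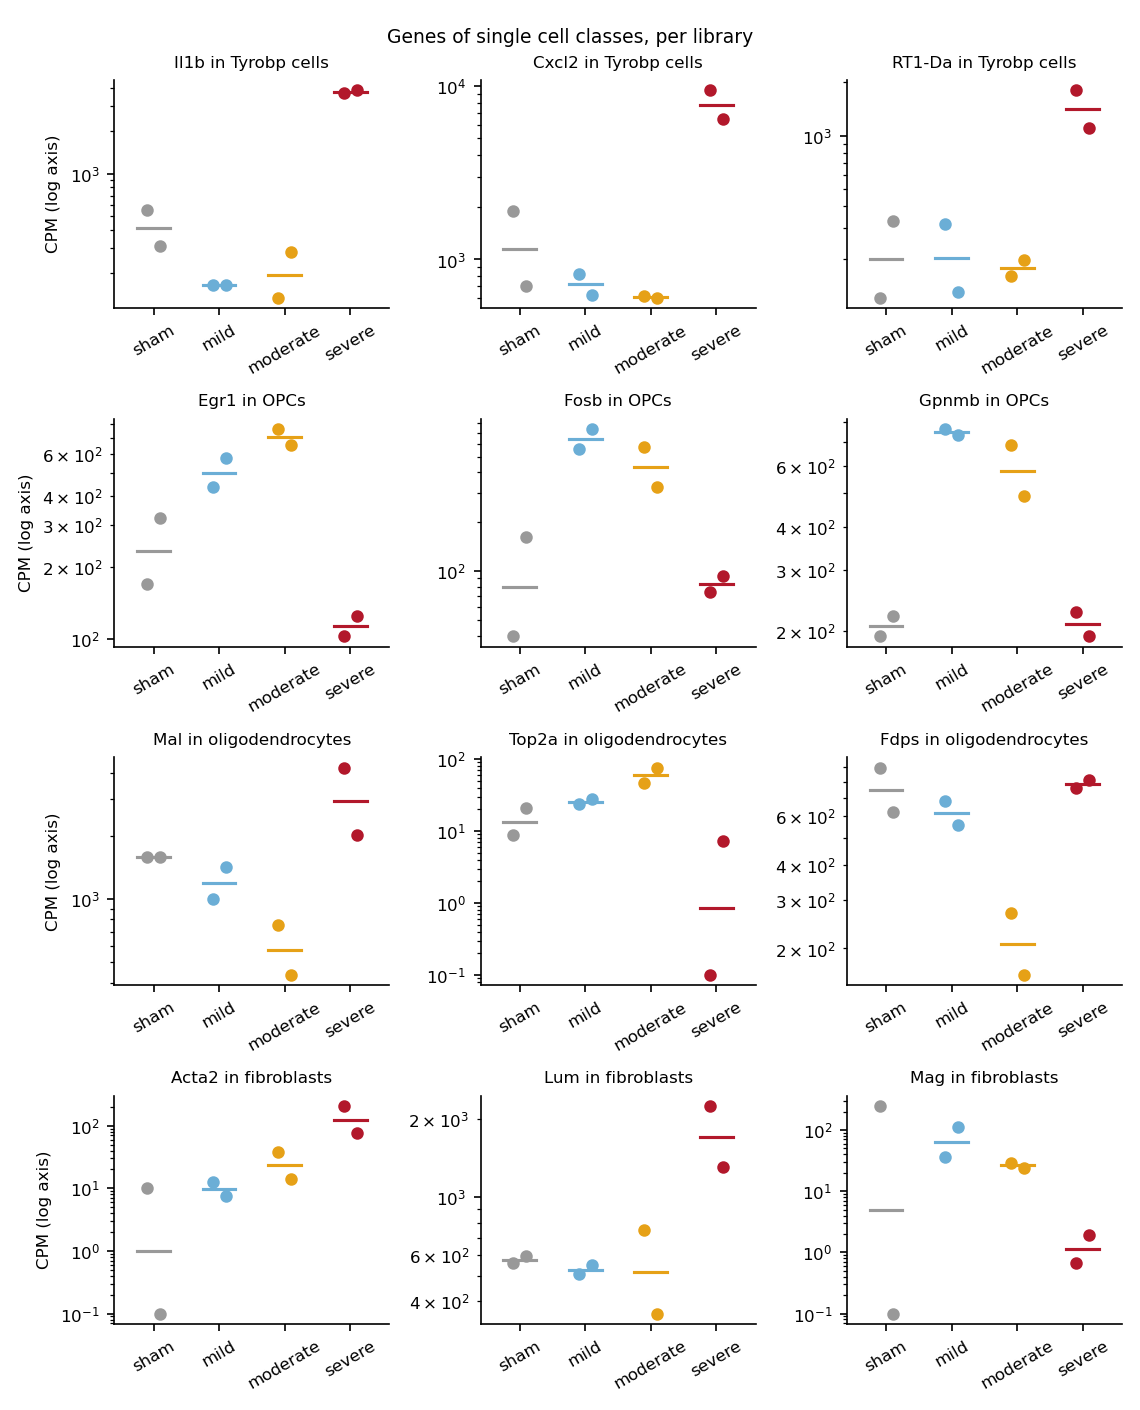
Each panel shows 1 gene in 1 class, with 1 point per library, the TMM-scaled CPM on a log axis and a bar at the geometric mean of the group. A level of 0 is drawn at 0.1 CPM. Il1b, Cxcl2 and RT1-Da lie highest in severe Tyrobp cells, Egr1 lowest in severe OPCs, and Mal highest in severe oligodendrocytes. Mag lies lower in both severe than in both moderate fibroblast libraries, and the sham fibroblast libraries range from 0 to 245 CPM. The second sham library held only 10 fibroblasts.

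Moderate libraries held 785 and 280 fibroblasts and severe libraries 618 and 425. Sham libraries held 463 and 10, so fibroblast levels of the second sham library stand on few UMIs. Their 6 markers summed to 5647 and 7549 CPM in the moderate and 13250 and 8076 CPM in the severe libraries, most of it Mgp, while Col1a2 was at 9.31 and 18.2 CPM in the moderate and 115 and 24.7 CPM in the severe libraries. Of 39 matrix and contractile genes, among them Col1a1 of the class rule, 6 rose and 1 fell (median 0.24). Acta2, the smooth muscle actin of myofibroblasts and pericytes, stood at 38.0 and 14.2 CPM in moderate and 204 and 76.9 CPM in severe libraries (2.42, SE 0.60, adjusted p = 0.0386). Lum, the proteoglycan lumican, stood at 749 and 358 against 2239 and 1306 CPM (1.68, SE 0.40, adjusted p = 0.0359), above the mild (509 and 548 CPM) and sham libraries (560 and 594 CPM). Its change exceeded that of the other classes by 2.94 (SE 0.70, adjusted p = 0.0232). Tagln, another contractile gene, stood at 534 and 439 against 1676 and 1302 CPM (1.62, SE 0.24). Without mixed cells 2 of the 39 rose and 2 fell, and Acta2 (2.26, adjusted p = 0.135) and Lum (1.42, adjusted p = 0.0693) missed the threshold. Without the second moderate library none of the list rose, without the first severe library 1, and with library size alone 4 rose and 8 fell.

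Ctsk, a collagen-cleaving protease, gave one of the clearest changes of the class. It stood at 166 and 118 CPM in moderate and 500 and 534 CPM in severe libraries (1.86, SE 0.22, adjusted p = 0.00931), passed without any one library, and exceeded the change in the other classes by 2.57 (SE 0.45, adjusted p = 0.00698). The difference of Ctsk was also taken with the mixed cells in the classes, and its value without them is not given here. Clu, a secreted chaperone, went from 143 and 112 to 843 and 975 CPM (2.83, SE 0.44, adjusted p = 0.017), and S100a6, a calcium-binding protein, from 6344 and 3243 to 15822 and 16332 CPM (1.75, SE 0.34). Cd9, a tetraspanin, went from 151 and 212 to 703 and 554 CPM (1.79, SE 0.26). Complement genes rose in 4 of 17 cases and fell in 1, with C1s at 45.4 and 29.5 against 77.7 and 133 CPM (1.48, SE 0.33) and Serping1, the C1 inhibitor, at 115 and 48.4 against 247 and 494 CPM (2.17, SE 0.48). Without mixed cells C1s (adjusted p = 0.146) and Serping1 (adjusted p = 0.072) no longer passed, none of 14 complement genes tested rose and 1 fell, and none rose without the second moderate or the second severe library.

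Cell cycle genes were lower in severe fibroblasts, with 6 of 29 down and none up (median -0.31), but 1 without the second moderate library and 2 without the second severe library. Mcm6, a replication helicase, went from 89.0 and 83.9 to 34.3 and 31.3 CPM (-1.40, SE 0.16, adjusted p = 0.00903), and Mki67 from 177 and 141 to 72.2 and 54.3 CPM (-1.33, SE 0.21). Both moderate and mild libraries were above both severe and sham libraries for Mki67, with 125 and 118 CPM in mild and 21.9 and 8.36 CPM in sham fibroblasts. The second of these sham values rests on 10 cells. Gpnmb went from 414 and 279 to 60.5 and 65.4 CPM (-2.46, SE 0.23, adjusted p = 0.00442), and it also fell in OPCs and in oligodendrocytes (-1.94, SE 0.42). Areg, a growth factor, stood at 36.1 and 222 against 19.1 and 11.1 CPM (-3.08, SE 0.78, adjusted p = 0.0405), with the second moderate library far above the first, and did not pass without mixed cells (adjusted p = 0.0681).

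Most myelin genes were lower in severe fibroblasts, with 10 of 24 down and none up (median -1.52). The summed level of the list did not fall, at 2440 and 2450 CPM in moderate and 2573 and 21901 CPM in severe libraries. Changes of its members reached 2.97. Mag, an adhesion protein of the inner myelin membrane, stood at 29.2 and 24.2 CPM in moderate and 0.664 and 1.89 CPM in severe libraries (-4.43, SE 0.69, adjusted p = 0.0175). Gfap, the filament of astrocytes, stood at 9.31 and 12.95 against 0.591 and 1.04 CPM. The 6 oligodendrocyte markers summed to 494 and 378 CPM in moderate and 109 and 202 CPM in severe fibroblasts. Without mixed cells 1 of 22 myelin genes fell, and Mag, with a change of -1.73 (edgeR adjusted p = 0.0674), no longer passed. That step removes every fibroblast with at least 3 UMIs of Mag and Mog, so it limits Mag by selection. Without the first or second moderate library 5 and 2 of the list fell, and without the first severe library 1 fell and 1 rose. Of the 32 genes called in fibroblasts that are named here, 28 remained called without the first moderate library, 12 without the second, and 17 without either severe library.

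**Figure D4:**
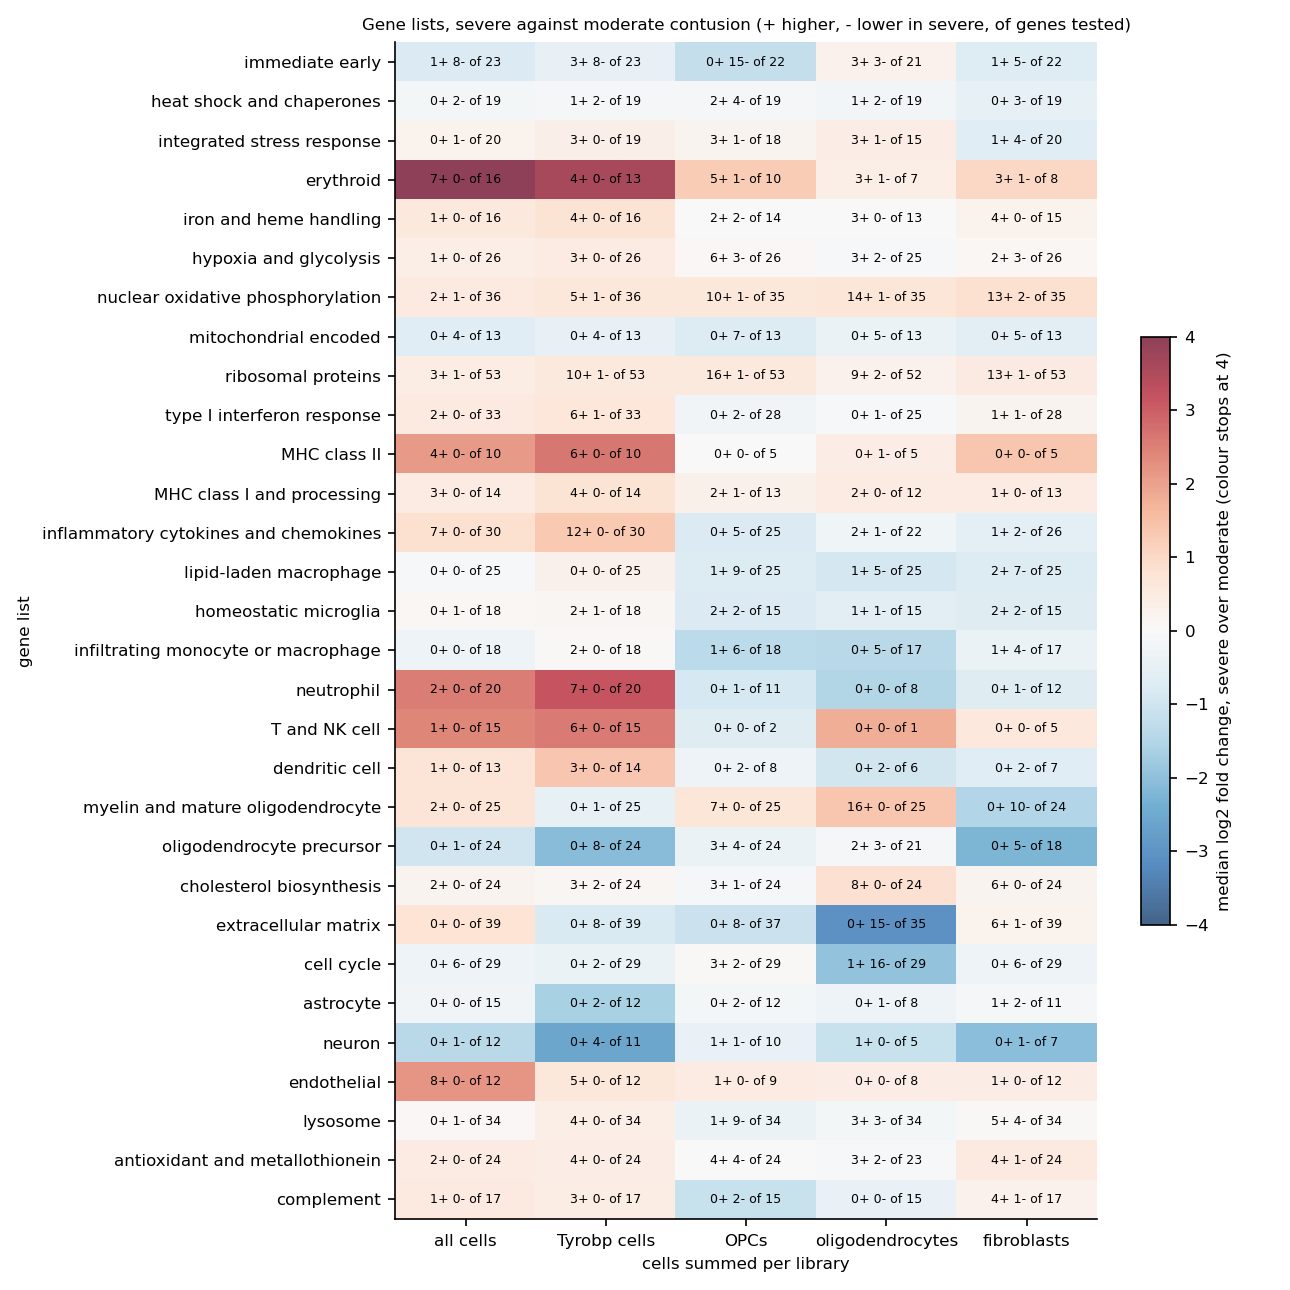
Rows are gene lists and columns the cells that were summed. Each cell gives how many genes were called higher (+) and lower (-) in severe libraries of the genes tested, and its colour the median log2 fold change of the list (red higher, blue lower, colour limits at -4 and 4). The highest counts for their column and direction include cytokines in Tyrobp cells (12 higher), immediate early genes in OPCs (15 lower), myelin genes (16 higher) and cell cycle genes (16 lower) in oligodendrocytes, and endothelial genes over all cells (8 higher). The myelin list includes Mag and Mog, which define the oligodendrocyte class.

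Over all cells 2 further lists, of endothelial and erythroid cells outside the 4 classes, gave the calls below. Of other such lists, that of T and NK cells gave 1 rise of 15 genes and that of neurons 1 fall of 12. Of 12 endothelial genes 8 rose and none fell (median 2.16 against -0.03 for all genes). Within the classes 5 of 12 rose in Tyrobp cells (median 0.64), 1 of 9 in OPCs, none of 8 in oligodendrocytes and 1 of 12 in fibroblasts. With the replicate block 9 of 12 rose over all cells. Emcn, a sialomucin of venous and capillary endothelium, stood at 0.579 and 0.556 CPM in the moderate libraries and 15.3 and 11.9 CPM in the severe libraries (4.58, SE 0.40, adjusted p = 0.00341). Cldn5, the tight junction protein of the blood-brain barrier, stood at 2.31 and 4.40 against 49.7 and 78.2 CPM (4.25, SE 0.55, adjusted p = 0.0131). Slco1a4, a transporter of brain vessels, stood at 0.612 and 1.10 against 22.27 and 18.01 CPM, and Vwf, von Willebrand factor, at 1.31 and 1.97 against 11.7 and 12.2 CPM (2.86, SE 0.38). The severe libraries reached the range of the sham libraries for Emcn (12.2 and 10.8 CPM) and Vwf (22.2 and 10.4 CPM), while the mild libraries lay between. A level over all cells cannot tell more cells of a type from more transcript per cell. Emcn passed without any one library. The list gave 2 rises without the first and 1 without the second moderate library, 7 without the first and 8 without the second severe library.

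Of 16 erythroid genes 7 rose and none fell over all cells (median 6.28), and 11 rose with the replicate block. Within the classes 4 of 13 rose in Tyrobp cells, 5 of 10 in OPCs, 3 of 7 in oligodendrocytes and 3 of 8 in fibroblasts, with 1 fall in each of the last 3. Hba-a2, a haemoglobin chain, stood at 1.47 and 17.5 CPM in the moderate and 1201 and 9424 CPM in the severe libraries, and at 1098 and 85.9 CPM in the sham libraries. This is a different gene entry from the one of the same name among the largest mean rises above. Cells with at least 10% haemoglobin were 2.481% and 11.998% of the severe and 0 and 0.0767% of the moderate libraries, where the count of 0 allows up to 0.0276% (counting error only). Without them 3 of 12 erythroid genes rose (median 1.76). Without either moderate library none rose, without the first severe library 9 rose and without the second 3. The number of genes called over all cells was 1077 without the haemoglobin-rich cells and 1082 with them.

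The shares of Tyrobp cells and OPCs lay lower in both severe than in both moderate libraries, while those of oligodendrocytes and fibroblasts overlapped. With 2 libraries a group the exact two-sided permutation test cannot give a p below 0.333. Tyrobp cells were 83.2% and 75.6% of moderate and 68.0% and 66.2% of severe cells (exact permutation test, p = 0.333). The groups overlapped when each cell was thinned to 1000 UMIs, at 59.5% and 47.7% against 57.1% and 52.6%. OPCs were 7.40% (95% Wilson interval 6.93 to 7.91%) and 15.5% (14.6 to 16.4%) of moderate and 2.20% (1.79 to 2.71%) and 4.54% (4.11 to 5.02%) of severe cells. Thinned, they were 0.451% and 0.906% against 0.276% and 0.210%, in the same order but with few cells. Oligodendrocytes were 2.43% and 3.19% against 1.90% and 3.54%, and fibroblasts 7.23% and 4.30% against 15.5% and 5.25%, with overlapping groups for both classes. These intervals cover counting error only. The number of cells of a type in the cord and their recovery from it cannot be told apart in such shares.

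**Figure D5:**
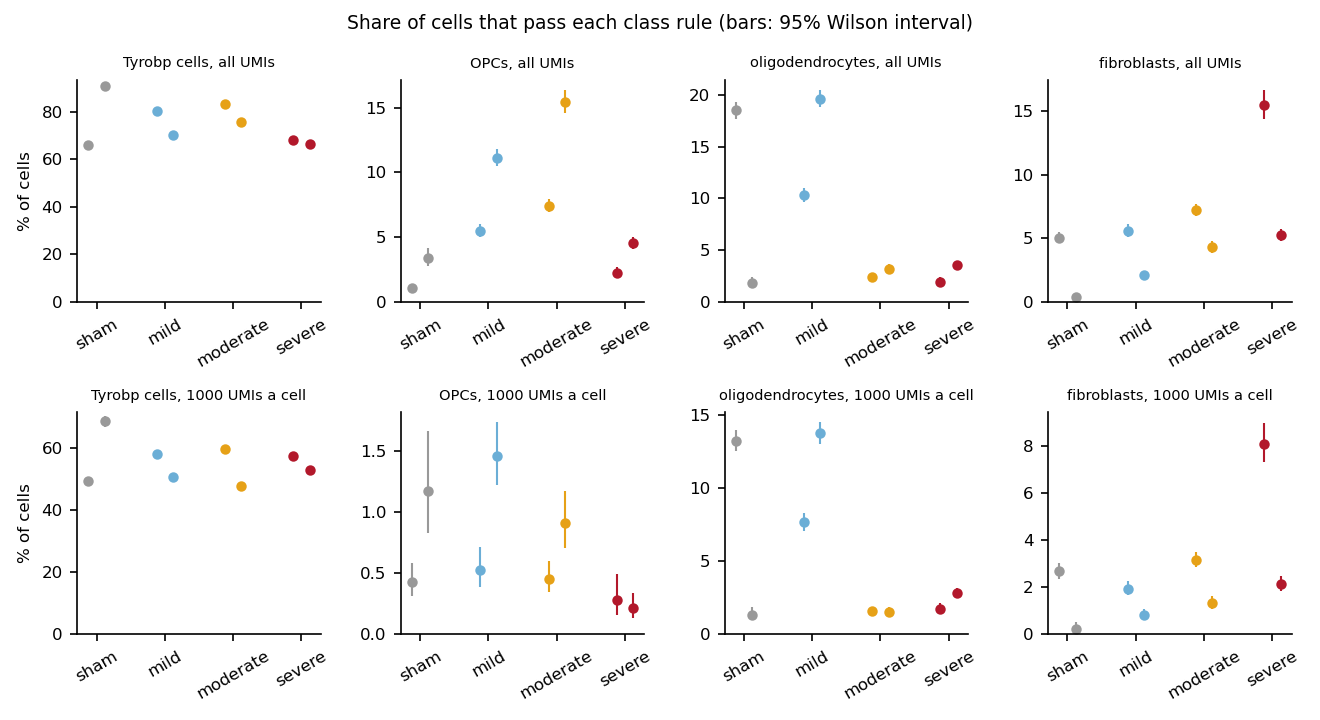
Points are libraries and bars the 95% Wilson intervals of the share of kept cells that met each class rule, with all UMIs (top row) and with each cell thinned to 1000 UMIs (bottom row). The OPC share lies lower in both severe libraries than in both moderate libraries in both rows, and the order of the Tyrobp share in the top row is absent in the bottom row.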

How the data were processed

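Single cells of the cord were captured in droplets (10x Genomics) and counted per gene. The authors deposited raw UMI counts per gene and cell for each library, made with Cell Ranger against the rat build Rnor_6.0 per the labels, with no normalization, and further used Seurat. Libraries were grouped by their labels. Here cells with at most 10% mitochondrial UMIs and at least 1000 UMIs were kept, counts of 32623 genes were summed per library and class, and the sums were tested with edgeR 4.0.16 (quasi-likelihood test, TMM, filterByExpr) in R 4.3.3 on the 6 injured libraries. The sham libraries stayed out of the fit. The shift shared by the classes was tested with limma 3.58.1 on the mean over classes of log2 CPM (prior count 2) and the difference between classes with edgeR and library as a block. The Benjamini-Hochberg threshold was 0.05. Shares of cells were compared with exact permutation tests, and their Wilson intervals were made with scipy 1.17.1. The tests were also run on counts simulated with the means, library sizes and spread of these data, and the outcome is not given here.

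No doublets were removed for the results above. Alternatives left out the 7.7% of cells with the highest doublet score in each library (Scrublet as in scanpy 1.11.5), cells of more than 1 class, cells with at least 10% haemoglobin or Tyrobp cells without C1q, the last 2 chosen after seeing the data, and used DESeq2 1.42.0, other limits, scalings and sets of libraries. Single genes in the text are, per population, up to 5 of the largest rises and falls with a mean of at least 50 CPM. For these, both severe libraries had to lie on one side of both moderate libraries, and for the shared shift in all 4 classes. Per gene list, up to 4 members of the largest change were taken, with further list members named after their values were seen. Some genes that this rule names are not reported here. The classes, the 32 gene lists and the tests were chosen with earlier results of these data known. Promoters were taken from RefSeq (GRCr8), not from the build of the counts. Reads of near-identical genes could not be separated in the deposited counts. The UMI totals in the report set the depth behind each level.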

Additional observations from a re-analysis of the deposited data

Results flagged for a closer look

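The genes below were singled out because their change between moderate and severe libraries differed between cell classes in a direct test (edgeR with library as a block, Benjamini-Hochberg adjusted p under 0.05). They are taken from the 5 largest differences in each direction per class among genes of at least 50 CPM. Each value is the log2 change in the class minus the mean log2 change in the other 3 classes, and the cause of none was tested. A positive value is thus not by itself a rise in the class.

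In Tyrobp cells the change was larger for the neutrophil genes S100a9 (4.96) and S100a8 (4.67), for G0s2 (3.39), for F13a1 (3.17), the gene of a coagulation factor subunit of macrophages, and for Cxcl1 (3.14). It was smaller for Il33 (-2.23), Ptn (-2.17), Rhob (-1.86), Dclk1 (-1.80) and Gadd45g (-1.75). In the first sham library S100a8 stood at 27375 CPM, above every injured library.

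In OPCs the change was larger for Igsf11 (4.03), Gad2 (2.87), Fam181b (2.20), Rtn1 (2.14) and Vgf (1.98), and smaller for Pltp (-2.004), Ddit4 (-1.58), Ctsb (-1.01), Itm2b (-0.88) and Ypel3 (-0.85). Igsf11 itself lay lower in severe libraries in every class. Its log2 changes were -0.61 in OPCs, -0.98 in oligodendrocytes, -3.02 in Tyrobp cells and -8.85 in fibroblasts. None of the 7 of these that could be tested without cells of more than 1 class passed there, and none of the 10 passed without either moderate library or without the first severe library.

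In oligodendrocytes the change was larger for Spock1 (3.97), Omg (3.74), Igsf11 (3.58) and Tmem229a (3.55), and smaller for Mgp (-3.15), Col1a1 (-2.98), Anxa1 (-2.49), S100a11 (-2.41) and Crip1 (-2.31). In fibroblasts it was larger for Trh (4.42), Igfbp5 (3.83), Sfrp4 (3.67), Dhrs9 (3.54) and Igf1 (3.19), and smaller for the myelin and oligodendrocyte genes Mbp (-3.55), Tf (-2.54) and Cnp (-1.97) and for Areg (-2.32). Without cells of more than 1 class, 6 of 9 genes that could be tested still passed in Tyrobp cells, 3 of 5 in oligodendrocytes and 3 of 7 in fibroblasts. Over the 4 classes that is 12 of 28. All 38 differences kept their direction in every alternative in which they could be tested.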

How the results depend on the processing

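With 2 libraries a group, the number of genes called depended on the libraries and on the fit. Leaving out 1 moderate or severe library leaves 1 sample in its group, which is then assumed to vary like the other groups, and gave 79 to 499 called genes over all cells (1082 with all libraries), 160 to 1986 in Tyrobp cells (2111), 387 to 2006 in OPCs (2459), 283 to 2302 in oligodendrocytes (2281), 109 to 745 in fibroblasts (2134) and 164 to 2912 for the shared shift (2781). For the differences between classes it gave 627 to 2190 in Tyrobp cells (2086), 0 to 445 in OPCs (59), 60 to 1124 in oligodendrocytes (1004) and 18 to 747 in fibroblasts (983). Without the second moderate library the number was the lowest in each of the 5 populations and for the shared shift.

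With library size alone the numbers were 2384 over all cells, 4362 in Tyrobp cells, 3617 in fibroblasts, 4522 for the shared shift and 572 for the difference of OPCs. DESeq2 called 3162 genes over all cells and 3894 in Tyrobp cells. Without a filter on low counts 2110, 3410 and 3757 genes were called over all cells, in Tyrobp cells and in fibroblasts. With the moderate and severe libraries alone they were 385 over all cells, 924 in Tyrobp cells, 1539 in OPCs, 969 in oligodendrocytes, 1315 in fibroblasts, 1546 for the shared shift, and 19, 669 and 624 for the differences of OPCs, oligodendrocytes and fibroblasts. With all 8 libraries, whose sham libraries differed from each other, they were 112, 55, 506, 1410 and 385 in the 5 populations and 146 for the shared shift. Without cells of more than 1 class 1396 genes were called in fibroblasts, and the differences between classes were 761 in Tyrobp cells, 0 in OPCs by edgeR (1302 genes at an unadjusted p under 0.05), 365 in oligodendrocytes and 299 in fibroblasts. The difference in the share of Tyrobp cells, -12.3 percentage points, was -17.2 with at least 2000 UMIs per cell and 1.27 with thinned cells, and that in the share of OPCs, -8.06 points, was -0.44 with thinned cells. The cause of these shifts was not tested.

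The labels number the libraries of each group 1 and 2 without saying what the number marks. Severe and moderate libraries of the same number correlated in their deviations by -0.23 to 0.10 over the 5 populations, mild and moderate libraries by 0.08 to 0.40 and mild and severe libraries by 0.01 to 0.52. Over all cells all 3 correlations were above 0.1 (0.40, 0.52 and 0.104), and in no single class were they, so the numbers were not taken as pairs within classes and the blocked counts over all cells are given in the report. A replicate block gave 2240 calls over all cells, 2169 in Tyrobp cells, 1761 in OPCs, 1864 in oligodendrocytes, 1716 in fibroblasts and 2243 for the shared shift. Of the named calls it lost Cebpb in Tyrobp cells, Hk2, Mki67 and Birc5 in OPCs, Fos in oligodendrocytes, and Areg and Fth1 in fibroblasts.

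Of 141 repeated tests of single genes named here, none changed direction in any alternative. Genes taken as largest changes were picked with both severe libraries on one side of both moderate libraries. Their direction without 1 library was therefore largely set by the pick. All 141 tests stayed on their side of the threshold with DESeq2, a mitochondrial limit of 20%, at least 2000 UMIs per cell and no filter on low counts. They were no longer called in 66 cases with all 8 libraries, 21 with the moderate and severe libraries alone, 16 without cells of more than 1 class, 13 with library size alone, 7 with the replicate block, 65 without the second moderate library, 39 without the first, 32 without the first severe and 28 without the second severe library. With the cells of the highest doublet scores left out, 7 of the 141 were no longer called. Depth limits the OPC and oligodendrocyte values of the first severe library most, with 88 and 76 cells.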

Other observations

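Of 26 hypoxia and glycolysis genes 3 rose and none fell in Tyrobp cells, 6 rose and 3 fell in OPCs, and 2 rose and 3 fell in fibroblasts, and of 25 in oligodendrocytes 3 rose and 2 fell. Apart from the rises in OPCs and Tyrobp cells these shares are near or below those of all genes. Aldoa, an aldolase, rose in Tyrobp cells from 924 and 938 CPM to 2135 and 1864 CPM (log2 change 1.10, SE 0.23), in OPCs from 752 and 714 to 1430 and 1421 CPM (0.96, SE 0.19) and in oligodendrocytes from 712 and 706 to 1128 and 1271 CPM (0.76, SE 0.22), all with an edgeR adjusted p under the threshold. In OPCs Ldha, lactate dehydrogenase, rose from 1103 and 903 to 1547 and 2246 CPM (0.92, SE 0.23), while Hk2, a hexokinase, went from 94.4 and 41.6 to 21.3 and 32.4 CPM (-1.28, SE 0.38), a call lost without cells of more than 1 class (adjusted p = 0.0805). Bnip3, a mitophagy receptor, rose in oligodendrocytes from 163 and 189 to 561 and 304 CPM (1.29, SE 0.30). Adm, the peptide adrenomedullin, rose in fibroblasts from 66.1 and 38.9 to 142 and 192 CPM (1.66, SE 0.41), and so did Fth1, the ferritin heavy chain, from 7499 and 6918 to 11847 and 17452 CPM (1.02, SE 0.25). The Adm and Fth1 calls were lost without any one library, and that of Adm without cells of more than 1 class (adjusted p = 0.0573).

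The study names 8 factors linked to immunity and autophagy, chosen on these samples, so that their behaviour here is not independent evidence. In Tyrobp cells 3 of the 8 rose (Cxcr4, Hspa8 and Vegfa), in OPCs 2 rose and 1 fell, in oligodendrocytes 1 rose and in fibroblasts 1 fell, and over all cells none was called by edgeR (3 at an unadjusted p under 0.05) and 3 were by DESeq2. Cxcr4 went in opposite directions in 2 classes. It rose in Tyrobp cells (1.42, SE 0.24) and went from 17.3 and 16.6 to 7.83 and 9.16 CPM in fibroblasts (-0.998, SE 0.225), a call lost without any one library. The difference of Tyrobp cells from the other classes was 1.88 (SE 0.24, adjusted p = 0.000667). Birc5, survivin, rose in OPCs from 150 and 152 to 239 and 253 CPM (0.71, SE 0.19). Cebpb, a transcription factor of myeloid cells, rose in Tyrobp cells from 338 and 894 to 3419 and 1788 CPM (2.08, SE 0.55), a call lost without cells of more than 1 class (adjusted p = 0.0703). Of 11 neuronal genes tested in Tyrobp cells 4 fell, and of 12 astrocyte genes 2 fell, with Gfap at 19.3 and 29.3 CPM in moderate and 2.52 and 7.61 CPM in severe libraries, which did not pass without cells of more than 1 class (adjusted p = 0.086).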
